A study of Mus musculus with 12 samples.

Results

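The carbonic anhydrases described here are 7 genes, Car2, Car4, Car5b, Car6, Car9, Car12 and Car13, out of 30464 named genes on the arrays. They were chosen by gene symbol in the platform table, as the probe set with the highest mean over all arrays for each gene. Each had 1 probe set, so signal decided nothing in that choice. The list itself was drawn up with earlier results of these data known, in which Car6 led the genes higher in conditioned medium, so the other 9 genes of the family are given beside it. The RNA came from RAW264.7, a mouse line of macrophage character, kept for 24 h in 1 of 4 media and measured on 12 Affymetrix arrays, 3 per medium. The media were one conditioned by JMJD6-KO PyMT-41C cells (KO medium; replicates 1, 2 and 3), one conditioned by SCR PyMT-41C cells with CSH added, which the labels call a blocker of the ANXA-1 receptor (SCR medium with CSH; 1, 2 and 4), the SCR conditioned medium alone (SCR medium; 1, 3 and 4) and normal medium (2, 3 and 4). Conditioned medium was mixed 50:50 with normal RPMI holding serum, per the labels. The JMJD6 knockout belongs to the PyMT-41C cells and not to the measured macrophage line. The labels give no vehicle group, no CSH in normal medium, no number of knockout clones and no word on whether a replicate was a culture of its own. The p-values therefore measure how far these arrays spread, which may be technical.

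Carbonic anhydrases are zinc enzymes that interconvert carbon dioxide and water with bicarbonate and a proton. The forms differ in place: Car2 and Car13 act in the cytosol, Car5b in the mitochondrion, Car9 and Car12 span the plasma membrane with the active site outside, Car4 is anchored to its outer face, and Car6 is secreted, with saliva as its best-known source. In cells of the macrophage lineage Car2 is known from the osteoclast, where it supplies the protons that dissolve bone, and in tumours Car9 and Car12 are known as genes that oxygen shortage can induce. In mouse, an intracellular form of Car6 that depends on the stress factor CHOP, the product of Ddit3, has also been described. A probe set gives 1 value per gene here, so these forms of Car6 could not be told apart.

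Of the 7 genes, Car6 was by far the most affected by conditioned medium, Car2 and Car13 were higher in it, Car12 was lower and Car5b did not pass the test. Car4 and Car9 lay below the median of all probe sets on each of the 12 arrays and were not tested. Signals are log2 RMA values, averages carry the SD over 3 arrays, and a difference of 1 is a doubling. Changes are log2 differences from limma, fitted over 18119 genes that exceeded the array median on at least 3 arrays, with the standard error (SE) and a p-value adjusted by the Benjamini-Hochberg method over those genes. A gene counted as changed at an adjusted p below 0.05. The 5 tested members exceeded the median on all 12 arrays, so none entered the test through 1 medium alone. In RNA from whole cultures, more RNA per cell and more cells that hold it cannot be told apart.

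The sequences around the annotated starts of Car6 and Car12, which moved farthest in opposite directions, and of Car9, which stayed dim, are shown first. Each runs from 250 bases before the start to 50 after it, from RefSeq on GRCm38.p6, 5′ to 3′ on the gene's strand. The Car12 start used by that table lies inside the outer limits of the gene given further on. Entries for 5 of the 7 genes were found (Car4, Car5b, Car6, Car9 and Car12); Car2 and Car13 had none. Capitals mark ACGTG or GCGTG, the core letters of the hypoxia response element, and, in Car9, TGANTCA, the AP-1 letters.
Car6, chr4:150201086-150201385, minus strand: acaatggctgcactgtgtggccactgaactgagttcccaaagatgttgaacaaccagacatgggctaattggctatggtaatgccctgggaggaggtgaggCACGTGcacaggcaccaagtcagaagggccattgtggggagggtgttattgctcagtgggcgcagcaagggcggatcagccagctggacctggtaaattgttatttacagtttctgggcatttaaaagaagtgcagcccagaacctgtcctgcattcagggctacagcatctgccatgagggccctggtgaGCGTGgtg
Car12, chr9:66713436-66713735, plus strand: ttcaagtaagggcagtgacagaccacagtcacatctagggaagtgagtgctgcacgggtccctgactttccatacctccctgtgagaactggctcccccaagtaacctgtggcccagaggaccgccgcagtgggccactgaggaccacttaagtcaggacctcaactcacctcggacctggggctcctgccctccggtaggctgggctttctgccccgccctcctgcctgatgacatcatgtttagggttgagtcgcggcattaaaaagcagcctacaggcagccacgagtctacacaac
Car9, chr4:43506776-43507075, plus strand: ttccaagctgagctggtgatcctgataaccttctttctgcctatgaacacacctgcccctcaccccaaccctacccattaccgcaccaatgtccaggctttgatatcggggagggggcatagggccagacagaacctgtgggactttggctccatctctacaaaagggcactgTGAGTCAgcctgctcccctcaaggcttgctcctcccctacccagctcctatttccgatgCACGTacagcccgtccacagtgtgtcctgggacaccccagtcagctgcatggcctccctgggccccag
In the Car6 window ACGTG occurred on both strands as a palindrome, with first bases 149 and 148 bases before the start, and GCGTG lay 42 bases past it. In Car9 ACGTG lay on the minus strand 18 bases before the start, and TGANTCA, which reads as itself on the other strand, 77 bases before it. Over 32851 promoter windows of the same length, 19.6% held ACGTG, 32.4% GCGTG and 7.81% TGANTCA on either strand. The Car6 window held neither TGCAAT, letters bound by C/EBP factors and CHOP (8.4% of windows), nor TGATGNAA, the ATF4 composite (3.97%). It also held none of TGANTCA, the CRE letters TGACG (20.8%), the PU.1 letters GAGGAA (28.3%) or TATAAA (13.6%), and it held a loose NF-kB pattern, as 50.8% of windows did. The Car12 window held none of these 9 patterns, which is why it has no capitals. A match is a description of letters in this window and shows no binding.

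**Figure D1:**
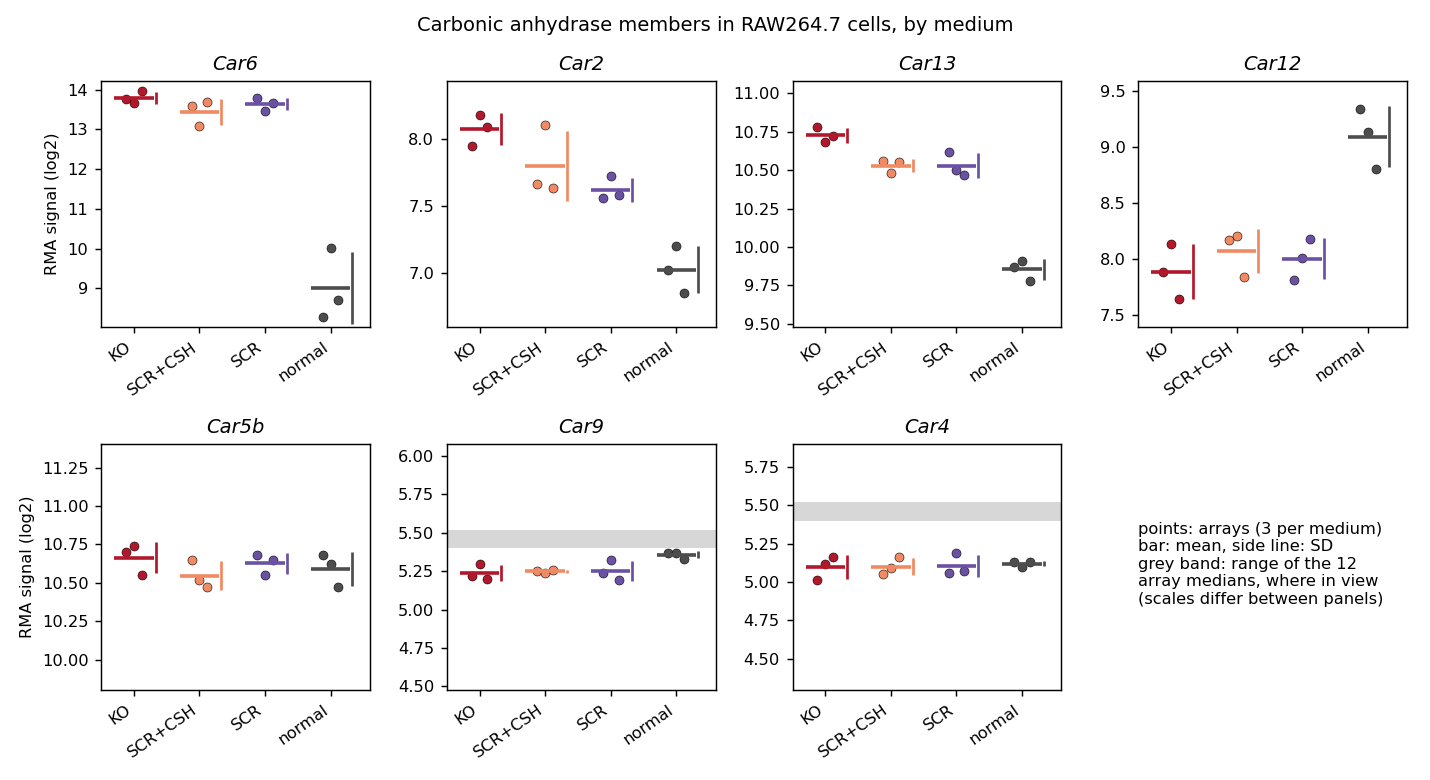
RMA signal (log2) of the 7 genes on each array, by medium (KO, SCR with CSH, SCR, normal). Points are arrays, bars are means, side lines are SD (n = 3), the grey band is the range of array medians, and scales differ between panels. The 9 conditioned-medium arrays of Car6 lie at 13.08 to 13.97, all above the normal-medium arrays at 8.28 to 10.02.

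Car6 (chromosome 4, 150187015 to 150201135, GRCm38.p6), whose secreted and intracellular forms could not be told apart here, read 13.76, 13.67 and 13.97 in KO medium. It read 13.58, 13.08 and 13.68 in SCR medium with CSH and 13.79, 13.47 and 13.67 in SCR medium, against 8.28, 10.02 and 8.70 in normal medium. No conditioned-medium array overlapped a normal-medium one, and the arrays of the 3 conditioned media overlapped each other. Against normal medium its log2 change was 4.80 (SE 0.33) in KO medium, 4.45 (SE 0.33) in SCR medium with CSH and 4.64 (SE 0.33) in SCR medium. These are folds of 27.9 (95% interval 17.1 to 45.5), 21.8 (13.4 to 35.6) and 25 (15.3 to 40.8). By size the change ranked 2, 1 and 1 among the 18119 tested genes in the same order of media. Because Car6 was picked from these comparisons, which also share the normal-medium arrays, its changes here are a description and no test is read from them. Its spread in normal medium was wide, with an SD of 0.91 where the median tested gene had 0.08, and replicate 3 stood above the other normal arrays. Without that array the change in SCR medium was 5.15 and without normal replicate 2 it was 4.28.

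Among the conditioned media Car6 did not pass the test. KO medium differed from SCR medium by 0.16 (SE 0.33, 95% interval -0.55 to 0.86, adjusted p = 0.995). SCR medium with CSH differed from SCR medium by -0.20 (SE 0.33, -0.90 to 0.51, adjusted p = 0.97). KO medium differed from SCR medium with CSH by 0.35 (SE 0.33, -0.35 to 1.06, adjusted p = 0.65). The intervals reach -0.90 at one end and 1.06 at the other, so they do not show that the media act alike on Car6. The fit pools a gene's spread over all media, so these intervals and p-values also carry the spread of normal medium. The SD of Car6 was 0.91 in normal medium, against 0.15 in KO medium, 0.32 in SCR medium with CSH and 0.16 in SCR medium. The intervals therefore do not measure the spread of the conditioned arrays alone.

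Car2 and Car13, the cytosolic forms, were higher in all conditioned media than in normal medium. Car2 (chromosome 3, 14886269 to 14900770) read 7.95, 8.18 and 8.09 in KO medium, 7.66, 8.10 and 7.63 in SCR medium with CSH and 7.56, 7.72 and 7.58 in SCR medium, against 7.02, 7.20 and 6.85 in normal medium. Each conditioned-medium array lay above each normal-medium array, and CSH replicate 2 lay apart from the other arrays with CSH, within the range of KO medium. Against normal medium Car2 rose by 1.05 in KO medium (SE 0.12, adjusted p = 1.74e-05), 0.77 in SCR medium with CSH (SE 0.12, adjusted p = 0.000289) and 0.60 in SCR medium (SE 0.12, adjusted p = 0.00187). These are folds of 2.07, 1.71 and 1.51.

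Car13 (chromosome 3, 14641727 to 14663002) read 10.78, 10.68 and 10.72 in KO medium. It read 10.56, 10.48 and 10.55 in SCR medium with CSH and 10.62, 10.50 and 10.47 in SCR medium, against 9.87, 9.91 and 9.78 in normal medium. It had a narrower spread than Car2, with SDs of 0.04 to 0.08 in the 4 media. It rose against normal medium by 0.87 in KO medium (SE 0.06, adjusted p = 2.71e-07). With CSH and in SCR medium alone it rose by 0.68 each (SE 0.06, adjusted p = 3.82e-06 with CSH and 3.44e-06 without).

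In KO medium both cytosolic forms lay above SCR medium on all arrays but did not pass the test over all genes. Car2 averaged 8.07 ± 0.12 in KO medium and 7.62 ± 0.09 in SCR medium, a difference of 0.45 (SE 0.12, 95% interval 0.19 to 0.72, unadjusted p = 0.00273, limma adjusted p = 0.286). Car13 averaged 10.73 ± 0.05 in KO medium and 10.53 ± 0.08 in SCR medium, a difference of 0.20 (SE 0.06, 0.06 to 0.33, unadjusted p = 0.00771, limma adjusted p = 0.477). The arrays lay wholly higher in KO medium for 2 of the 5 members, beside 5% of all tested genes. With array weights, which gave SCR replicate 4 a weight of 6.13, both passed (adjusted p = 0.0261 for Car2 and 0.0224 for Car13), as did 376 genes in all, where the unweighted fit called 49. Against SCR medium with CSH, KO medium was higher by 0.28 for Car2 (SE 0.12, adjusted p = 0.296) and 0.20 for Car13 (SE 0.06, adjusted p = 0.146). CSH against SCR medium alone differed by 0.18 for Car2 (-0.09 to 0.44) and 0.00 for Car13 (-0.13 to 0.13), neither past the test.

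Car2 and Car13 lie at the ends of a cluster of carbonic anhydrase genes on chromosome 3, in the order Car13, Car1, Car3 and Car2, which spans 259 kb. Car1 and Car3, the genes between them, stayed below the array median on all arrays. Car1 averaged 4.66, 4.63, 4.65 and 4.65 in KO medium, SCR medium with CSH, SCR medium and normal medium, and Car3 4.90, 4.88, 4.89 and 4.89. Only the outer genes of the cluster therefore gave a signal on which a change could be measured.

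Car12 (chromosome 9, 66712296 to 66766845), a membrane-spanning form, was the tested member that fell. It read 7.88, 8.13 and 7.64 in KO medium, 8.17, 8.20 and 7.84 in SCR medium with CSH and 7.81, 8.01 and 8.18 in SCR medium, against 9.34, 9.13 and 8.80 in normal medium. The conditioned media overlapped each other and lay wholly below normal medium. It fell by 1.21 in KO medium (SE 0.16, adjusted p = 4.28e-05), by 1.02 in SCR medium with CSH (SE 0.16, adjusted p = 0.000228) and by 1.09 in SCR medium (SE 0.16, adjusted p = 0.000129). Normal medium was thus 2.31-fold, 2.03-fold and 2.13-fold higher. Between KO and SCR medium the difference was -0.12 (SE 0.16, -0.45 to 0.22, adjusted p = 0.995), between CSH and SCR medium 0.07 (-0.27 to 0.41, adjusted p = 0.981), and between KO medium and CSH -0.19 (-0.52 to 0.15, adjusted p = 0.608).

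Car5b (chromosome X, 163976822 to 164028010), the mitochondrial form, was well above the array median and did not pass the test in any comparison. It averaged 10.66 ± 0.10 in KO medium, 10.55 ± 0.09 in SCR medium with CSH and 10.63 ± 0.07 in SCR medium, against 10.59 ± 0.11 in normal medium. Its difference from normal medium was 0.07 (-0.09 to 0.24) in KO medium, -0.04 (-0.21 to 0.12) with CSH and 0.04 (-0.13 to 0.20) in SCR medium. Changes larger than 0.24 in either direction lie outside these 95% intervals.

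Car9 and Car4, forms with the active site outside the cell, gave no signal above the array median. Car9 (chromosome 4, 43507026 to 43513729) averaged 5.24 ± 0.05 in KO medium, 5.25 ± 0.01 in SCR medium with CSH and 5.25 ± 0.07 in SCR medium, against 5.36 ± 0.02 in normal medium. Its arrays in each conditioned medium lay wholly below those in normal medium, though the highest SCR array read 5.32 and the lowest normal one 5.33. Arrays did not overlap, in either direction, for 49.8% (KO), 46.8% (CSH) and 43.3% (SCR) of all tested genes. Car9 lay 0.07 to 0.27 below the median of its array, and Car4 (chromosome 11, 84957754 to 84966054) 0.29 to 0.43 below it. Car4 averaged 5.10, 5.10, 5.11 and 5.12 in the same order. With no filter on low values neither passed in any comparison against normal medium (adjusted p = 0.124 to 0.175 for Car9 and 0.861 to 0.928 for Car4). At this signal a change of either gene would be hard to see on these arrays, so no statement of its absence is made.

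**Figure D2:**
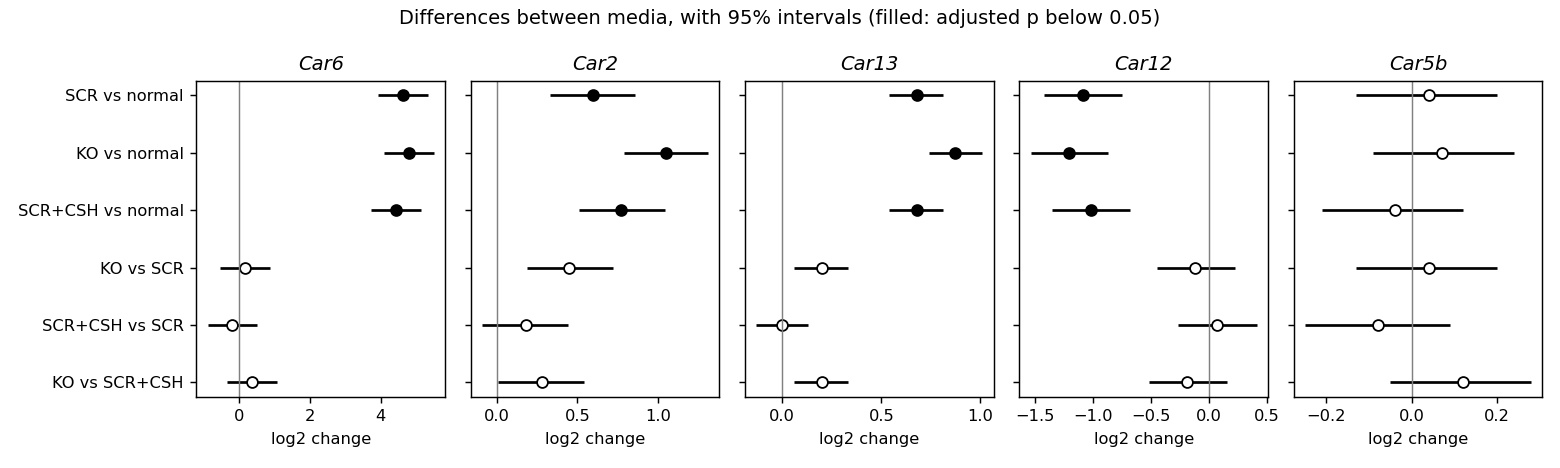
Log2 change with its 95% interval for the 5 tested genes in the 6 comparisons, filled where adjusted p was below 0.05. Car6 was picked from the comparisons with normal medium, so no test is read from its filled points there. Car6, Car2 and Car13 lie right of 0 and Car12 left of 0 in each conditioned medium against normal medium, and no point among the conditioned media is filled.

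In counts, 3 of the 4 tested members other than Car6 passed in each conditioned medium against normal medium, Car2 and Car13 higher and Car12 lower. Car6 is left out of this count because it was picked from these comparisons. The rest of the list was also drawn up with earlier results of these data known, so the count is a description. The share of all tested genes called was 39.1% for KO medium, 35.8% for SCR medium with CSH and 35.2% for SCR medium, so a change in these comparisons was common among genes of any kind. By direction 21.4%, 20.9% and 19.3% of genes were called higher and 17.6%, 14.9% and 15.8% lower. Arrays did not overlap for the same 3 members, beside 49.8%, 46.8% and 43.3% of all tested genes in that order of media. Between KO and SCR medium 0 of 5 were called by limma, with 2 at an unadjusted p below 0.05 and 2 without overlap, beside 0.27% of all genes called, 5.95% at the unadjusted threshold and 9.37% without overlap. Between CSH and SCR medium 0 of 5 were called, with 0 at an unadjusted p below 0.05 and 0 without overlap, beside 0% of all genes called, 6.24% at the unadjusted threshold and 8.59% without overlap. Between KO medium and CSH 0 of 5 were called, with 2 at the unadjusted threshold and 1 without overlap, beside 1.9% called, 15.7% at the unadjusted threshold and 21.8% without overlap among all genes. The 3 comparisons with normal medium share its arrays, so they are not separate evidence. The calls and non-calls of Car2, Car5b, Car12 and Car13 in these comparisons, and the non-calls of Car6 among the conditioned media, were the same with each array left out in turn.

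**Figure D3:**
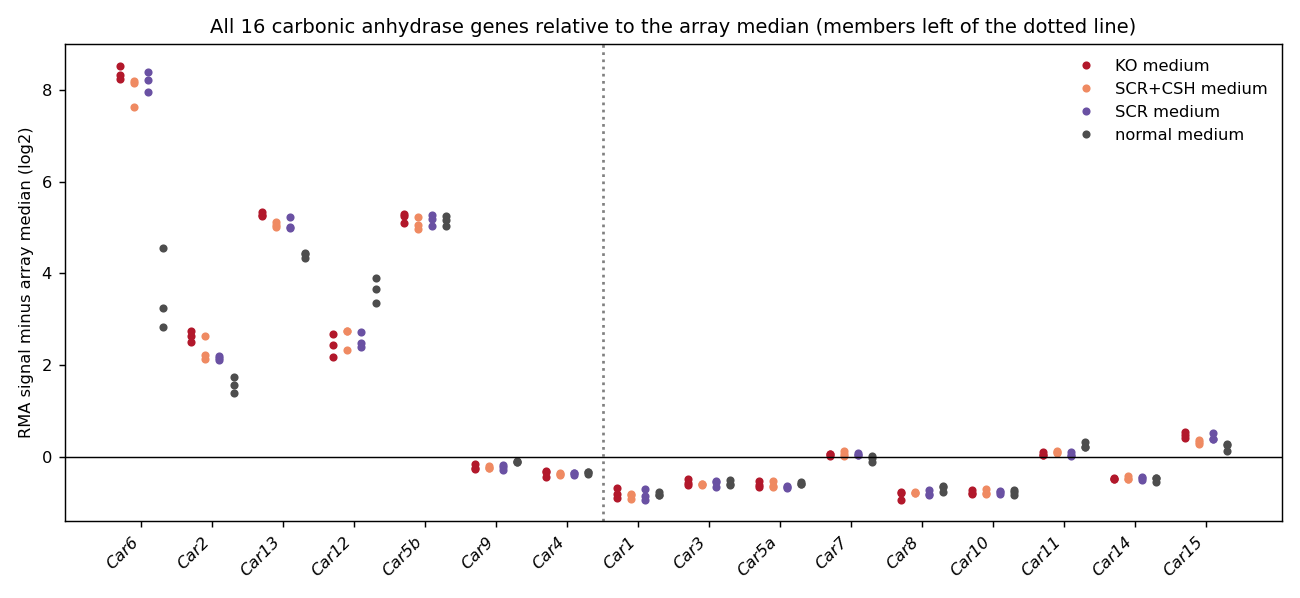
RMA signal minus the array's median (log2) for all 16 carbonic anhydrase genes, a point per array, coloured by medium. Of the 9 genes right of the dotted line, only Car7, Car11 and Car15 reach 0 or more on any array, none above 0.55.

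The other 9 genes of the family gave little signal. The cytosolic forms Car1 and Car3, the mitochondrial form Car5a, the membrane form Car14 and the catalytically inactive relatives Car8 and Car10 lay below the array median on all arrays. Car7, Car11 and Car15 were tested, at 0.10 below to 0.55 above the median. Car15, a form anchored to the outer face of the membrane, rose in KO medium (0.26, SE 0.06, adjusted p = 0.00508) and in SCR medium (0.22, SE 0.06, adjusted p = 0.0133), and differed by 0.12 with CSH (adjusted p = 0.164). Car11, an inactive relative, fell by 0.19 in KO medium (adjusted p = 0.0169) and by 0.19 in SCR medium (adjusted p = 0.0189), and differed by -0.13 with CSH (adjusted p = 0.09). With single arrays left out the Car11 call was lost in SCR medium (adjusted p up to 0.083, without normal replicate 3 or SCR replicate 4) and in KO medium (up to 0.0773, without normal replicate 3 or KO replicate 1 or 2). The Car15 call in SCR medium was lost without normal replicate 2 (up to 0.0653). Car7 did not pass (0.09, 0.12 and 0.11 against normal medium). In the comparisons with normal medium, 2 of these 3 genes were called in KO medium, 0 with CSH and 2 in SCR medium. Beside this, 39.1%, 35.8% and 35.2% of all tested genes were called in that order. Among the conditioned media 0 of these 3 genes were called by limma in any comparison. Of all tested genes, 0.27% were called for KO against SCR medium, 0% for CSH against SCR medium and 1.9% for KO medium against CSH. Only Car15 between KO medium and CSH had an unadjusted p below 0.05, as did 15.7% of all genes there.

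The genes most like Car6 and Car12 were sought by the root mean square difference over the 12 arrays, after each gene's normal-medium mean was subtracted. For Car6 they were F5, coagulation factor V (0.63 on the log2 scale), the chemokine receptor gene Ccr1 (0.80), Avil (0.92), the urokinase receptor gene Plaur (0.98) and Sh2d6 (1.29). F5 averaged 11.26 in KO medium, 9.92 in SCR medium with CSH and 10.35 in SCR medium, against 6.31 in normal medium. For Car12 they were Lair1, an inhibitory collagen receptor (0.10), Neurl2 (0.13), Twsg1 (0.14), St6gal1, a sialyltransferase (0.14), and Ptprj, a receptor phosphatase (0.14). The measure is not scaled by the size or spread of a gene's change, so the values for Car6 and Car12 do not compare closeness. Lair1 averaged 8.21 in KO medium, 8.46 with CSH and 8.43 in SCR medium, against 9.48 in normal medium. Likeness of profile over 4 media says nothing of shared function.

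**Figure D4:**
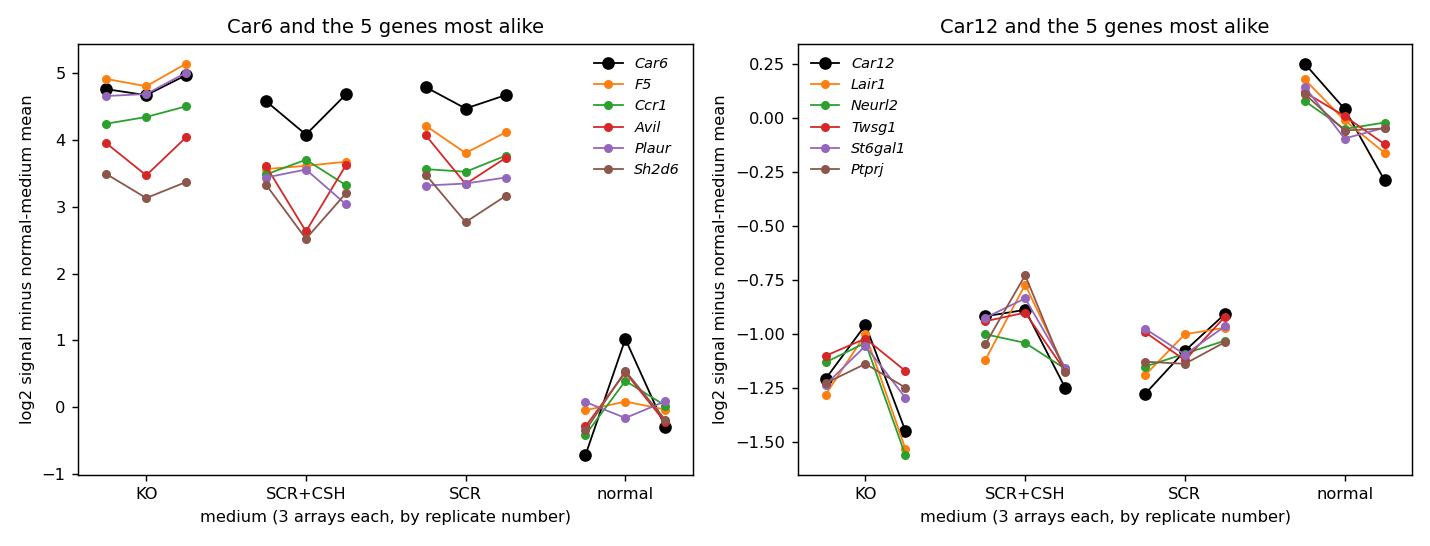
Log2 signal minus each gene's normal-medium mean on the 12 arrays, by medium and replicate number, for Car6 (left) and Car12 (right) with the 5 genes most like each. Car6 lies above its neighbours in SCR medium and SCR medium with CSH, and Car12 and its neighbours lie below 0 on all 9 conditioned arrays. Lines only join the arrays of a medium.

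Ddit3, which encodes CHOP, was then set beside Car6. It read 16.02, 15.79 and 16.02 in KO medium, 15.93, 15.21 and 15.95 in SCR medium with CSH and 15.89, 15.50 and 15.83 in SCR medium, against 12.84, 13.47 and 12.79 in normal medium. It rose against normal medium by 2.91 in KO medium (SE 0.21, adjusted p = 2.6e-07), 2.66 with CSH (SE 0.21, adjusted p = 1e-06) and 2.71 in SCR medium (SE 0.21, adjusted p = 7.73e-07). Its second probe set, at 15.50, 15.28, 15.29 and 13.08 in KO medium, SCR medium with CSH, SCR medium and normal medium, was also higher in each conditioned medium. Among the conditioned media Ddit3 did not pass (adjusted p = 0.995 for KO against SCR medium, 0.992 for CSH against SCR medium and 0.607 for KO medium against CSH). Within media the arrays of Ddit3 and Car6 stood in a like order: KO replicate 2, CSH replicate 2 and SCR replicate 3 were lowest for both, and normal replicate 3 was highest for both. Over deviations from the medium's mean on 12 arrays their Pearson r was 0.84 and Spearman's rho 0.90, and over the 9 conditioned arrays r was 0.95 and rho 0.85. Over the 12 arrays 153 tested genes had a higher r with Car6 than Ddit3, and over the 9 arrays 36 did. Points of a medium share its mean, and the genes share their arrays, so these are descriptions without a test, made after the values were seen. Atf4, an upstream factor of CHOP, averaged 11.21, 11.27 and 11.20 in KO medium, SCR medium with CSH and SCR medium, against 10.48 in normal medium, and rose by 0.73, 0.79 and 0.72.

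Of the list of CHOP and unfolded protein response genes, 18 of 20 were on the table and all 18 were tested. In KO medium 17 rose and 1 fell against normal medium, with a median of 0.88. Without normal replicate 3 or 4 or KO replicate 1 or 2, 14 rose. With CSH 12 rose, 1 fell and 5 missed the threshold (median 0.80), and in SCR medium 15 rose, 1 fell and 2 missed it (median 0.81). Of all tested genes 21.4%, 20.9% and 19.3% were called higher in these media in that order, with medians of 0.01, 0.03 and 0.02. In SCR medium the smallest p-values belonged to Ppp1r15a (2.17), Hspa5, an endoplasmic reticulum chaperone (1.58), Trib3 (2.41) and Ddit3. The gene that fell in SCR medium was Atf3 (-0.66), named after its value was seen. Among the conditioned media 0 of 18 were called in any comparison. Of all tested genes, 0.27% were called for KO against SCR medium, 0% for CSH against SCR medium and 1.9% for KO medium against CSH. Earlier results of these data had already shown unfolded protein genes to be higher in SCR medium. The counts of genes that rose against normal medium are therefore no independent support.

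Of genes of the response to oxygen shortage, among which Car9 and Car12 are counted in tumours, all 25 listed were tested. Against normal medium 7 rose and 6 fell in KO medium (median -0.01), 4 rose and 8 fell with CSH (median -0.17) and 4 rose and 6 fell in SCR medium (median -0.06). The shares of all tested genes called were 39.1%, 35.8% and 35.2%, and the count in SCR medium was near its share. Without normal replicate 3 or 4 or KO replicate 1 or 2, 4 rose in KO medium. In SCR medium Hilpda, a lipid droplet gene (1.39), Vegfa (1.32) and Ero1a (0.96) rose and Aldoc, a glycolytic enzyme (-0.97), fell. Between KO and SCR medium 2 of 25 were higher, beside 0.254% of all genes, namely Vegfa (0.39, adjusted p = 0.0332) and Ddit4 (0.61, adjusted p = 0.0263), and 0 of 25 were higher without SCR replicate 1 or 3 or any 1 KO replicate (adjusted p up to 0.147 and 0.135 with single arrays left out). Between KO medium and CSH 3 of 25 were higher, beside 1.9% of all genes called in either direction, Vegfa by 0.58, Ddit4 by 0.63 and Hilpda by 0.56 (adjusted p = 0.00104, 0.00912 and 0.00874).

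Bicarbonate made or used by carbonic anhydrases is moved by transporters and fixed by carboxylases. Of 20 listed genes of bicarbonate, proton and lactate transport, not all of which encode transporters, 18 were on the table and 12 were tested. Against normal medium their median changes were 0.00 in KO medium, 0.02 with CSH and -0.02 in SCR medium. In each of these media 4 rose and 4 fell, beside 39.1%, 35.8% and 35.2% of all genes called. These counts rested on single arrays. Rises numbered 2 in KO medium without normal replicate 3 or KO replicate 1, 2 with CSH without CSH replicate 1 or 4, and 2 in SCR medium without normal replicate 3 or SCR replicate 1. Falls with CSH numbered 1 without normal replicate 3 or CSH replicate 4 and 2 without normal replicate 2 or CSH replicate 1. In SCR medium the anion exchanger gene Slc4a2, the partner of Car2 in osteoclasts, rose by 0.57 (SE 0.08) and Slc4a11 by 0.20, and the lactate carrier gene Slc16a7 fell by 0.47 and Slc26a11 by 0.29. Of 10 listed enzymes of bicarbonate use and urea synthesis, 9 were on the table and 7 tested. In KO medium 2 rose and 2 fell (median -0.17), with CSH 2 rose and 2 fell (median 0.01) and in SCR medium 2 rose and 3 fell (median -0.14), beside the same shares of all genes. Without normal replicate 2, 1 fell in KO medium, 1 rose and 0 fell with CSH, and 1 rose and 1 fell in SCR medium. Falls also numbered 1 in KO medium without KO replicate 2 and 1 with CSH without normal replicate 3 or any 1 CSH replicate. In SCR medium 1 rose without SCR replicate 1, and 1 fell without any 1 SCR replicate, KO replicate 1 or 2 or CSH replicate 1. Mccc1 (0.61) and Mccc2 (-0.25), subunits of the same carboxylase, moved in opposite directions in SCR medium. Pcca (0.22) rose and Acacb (-0.14) fell there, but neither call held with each array left out. The Pcca call was lost without normal replicate 2 or SCR replicate 1 (adjusted p up to 0.0861). The Acacb call was lost without any 1 array other than normal replicate 4 (adjusted p up to 0.163).

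Car2 is a gene of the osteoclast, which RAW264.7 cells can become, so other osteoclast genes were counted. Of 16 listed, 13 were tested and Calcr, Oscar and Ocstamp lay below the filter. In KO medium 3 rose and 4 fell (median 0.09), with CSH 5 rose and 4 fell (median 0.08) and in SCR medium 4 rose and 4 fell (median 0.16), beside 39.1%, 35.8% and 35.2% of all genes called. Rises numbered 3 with CSH without normal replicate 2 or 4 or CSH replicate 1, and 2 in SCR medium without normal replicate 2 or SCR replicate 1 or 4. In SCR medium Atp6v0d2, a proton pump subunit, rose by 0.91 (SE 0.08). Dcstamp, the fusion receptor of osteoclast precursors, fell by 2.02 (SE 0.14), Plekhm1 by 1.07 and Tnfrsf11a, the receptor RANK, by 0.51. Among the conditioned media 0 of 13 were called in any comparison. Beside this, 0.27% of all genes were called for KO against SCR medium, 0% for CSH against SCR medium and 1.9% for KO medium against CSH.

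**Figure D5:**
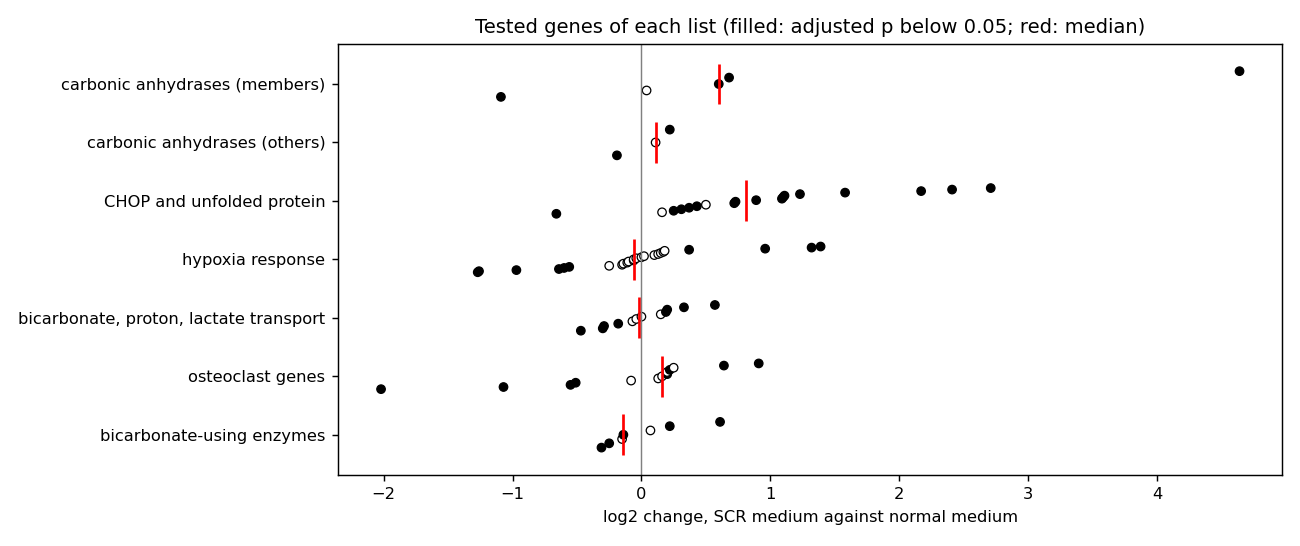
Log2 change in SCR medium against normal medium for the tested genes of each list, filled where adjusted p was below 0.05, with the list's median in red. Car6 was picked with this comparison known, so no test is read from its filled point. The CHOP and unfolded protein list lies mostly right of 0 (median 0.81), while the hypoxia, transport, osteoclast and bicarbonate-using (with urea synthesis) lists hold filled points on both sides.

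The label of the cells was checked against markers. Of 10 macrophage markers 9 passed the filter, all but Mertk. Against normal medium 3 rose and 4 fell in KO medium, 2 rose and 3 fell with CSH and 2 rose and 4 fell in SCR medium, beside 39.1%, 35.8% and 35.2% of all genes called. In SCR medium Csf1r (-1.79), Adgre1 (-1.45), Ptprc (-0.50) and Cd68 (-0.15) fell while Itgam (0.97) and Cd14 (0.61) rose, and Lyz2, Fcgr3 and Spi1 did not pass. The mean of the 10 ran from 12.21 to 12.32 in KO medium, 12.13 to 12.39 with CSH and 12.15 to 12.29 in SCR medium, against 12.42 to 12.49 in normal medium. The Cd68 call was lost without SCR replicate 3 (adjusted p = 0.0532). Whether the shift in these markers has a part in the carbonic anhydrase changes was not tested. Of 9 epithelial markers, which the cells that conditioned the medium could carry, Krt8, Krt14, Cldn4 and Wfdc2 passed the filter and Epcam, Krt5, Krt18, Krt19 and Cdh1 did not. The mean of the 9 ran from 5.18 to 5.19 in KO medium, 5.16 to 5.21 with CSH and 5.14 to 5.23 in SCR medium, against 5.15 on each normal array. In any comparison 0 of 4 were called, beside the shares given above against normal medium. Among the conditioned media the shares were 0.27% for KO against SCR medium, 0% for CSH against SCR medium and 1.9% for KO medium against CSH. Of the fibroblast and erythroid lists 4 genes each were on the table, of which 0 and 1 (Alas2, not called) passed the filter, with list means of 4.71 to 4.89 and 5.27 to 5.42 over all arrays.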

How the data were processed

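Per the submitters' processing notes, the authors ran RMA, using the Affymetrix Expression Console and build mm10, to make the deposited log2 signals. Versions, probe filters, scan dates and batch steps were not stated there. RMA sets arrays to 1 scale, so a shift in total RNA would not show, and it compresses changes of dim genes. The table held 65528 probe sets on 12 arrays with array medians of 5.40 to 5.52 and 0 identical array pairs; the number of arrays limits the precision.

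Platform symbols were updated through the RefSeq table of GRCm38.p6, which is the assembly mm10: 31018 probe sets had 1 symbol, 1478 several and 33032 none listed here. The highest-mean probe set stood for each of 439 genes with several. Genes above the array median on at least 3 arrays were fitted by limma 3.58.1 (R 4.3.3, group as the only term, all 12 arrays, intensity trend, 8 residual degrees of freedom). Adjusted p-values are limma's with Benjamini-Hochberg adjustment. Simulated data for KO against SCR medium over 18119 genes gave 88 of 100 calls at a change of 0.58, 99 of 100 at 1 and 8 false calls. The changes were added to randomly drawn genes, with independent noise at each gene's own residual SD (median 0.096). These rates do not apply to members with a wider spread, such as Car6. Figures used matplotlib 3.10.9.

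Members, lists, tests and alternatives were chosen with earlier results of these data known. The genes named are all carbonic anhydrases, Ddit3, Atf4, up to 4 called genes of smallest p in each list in SCR against normal medium, and the 5 genes most like Car6 and Car12 (predicted genes, Riken clones and small RNAs left out). Others were named after their values were seen (Atf3, Ddit4, Hilpda between conditioned media, Cd14 and Cd68). Alternatives covered filters, scalings, array weights, probe-set means, a replicate block and leaving out each array.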

Additional observations from a re-analysis of the deposited data

How the results depend on the processing

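The calls of Car2, Car12 and Car13 in each conditioned medium against normal medium were made under each of the 22 alternatives run (filters, scalings, no trend, array weights, probe-set means, the replicate block, each array left out, the 6 arrays alone and an adjusted p below 0.01). Between KO and SCR medium, array weights gave 2 calls in place of 0, Car2 at 0.49 and Car13 at 0.24; that weighting did not reach its convergence tolerance. Of 660 recomputed member values 646 kept direction and side of the threshold, and 12 turned sign, none of them called. Many of these values could not turn sign. The filters, no trend, probe-set means, the 6 arrays alone and the stricter threshold leave a member's change as it was. So does leaving out an array of a medium outside the comparison. The tally also holds Car6 against normal medium, from which no test is read. Car5b turned to -0.024 (SCR) and -0.014 (KO) against normal medium under quantile normalization, and between KO and SCR medium to -0.003 with the replicate block. With single arrays left out it ran from -0.023 to 0.082 in SCR medium and from -0.103 to 0.002 with CSH against normal medium, and from -0.002 to 0.093 between KO and SCR medium. Car12 between KO and SCR medium ran from -0.24 to 0.005 with single arrays left out. Between CSH and SCR medium Car12 turned to -0.043 with array weights, -0.033 with the replicate block and, with single arrays left out, ran from -0.025 to 0.185, and Car6 to 0.082 with the replicate block. The labels do not say that a replicate number marks a shared culture or day, and not every same-numbered pair deviated together: over 12 pairs the correlation of deviations had a median of 0.069 and exceeded 0.1 in 5, against a median of -0.0465 over the other 42. The 5 were the 3 pairs of replicate 1 (0.141 to 0.295) and the pairs of CSH replicate 2 with KO replicate 2 (0.25) and normal replicate 2 (0.118). Some pairs of unlike number also exceeded 0.1, up to 0.211 for KO replicate 3 with CSH replicate 4. The replicate block gave 39 calls between KO and SCR medium, against 49 without it, and changed no member's call. The cause of these shifts was not tested. Counts over all genes moved more than the members' calls. Between KO and SCR medium (49) they were 33 with no filter on low values, 22 with the 6 arrays alone, and 20 to 25 without SCR replicate 1, 3 or 4 or KO replicate 1 or 3. Between KO medium and CSH (345) they were 210 with no filter, 154 with median centring (77.9% of them higher, against 63.5%), 594 with quantile normalization, 654 with array weights, 214 with the replicate block, 162 with the 6 arrays alone, and 107 to 201 without CSH replicate 2 or 4 or any KO replicate. Between CSH and SCR medium 79 genes passed with array weights, against 0.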
